A study of Homo sapiens with 42 samples.

Results

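The 10 genes described here make, balance and break down the polyamines. They are ODC1, AMD1, SRM, SMS, AZIN1, OAZ1, OAZ2, SAT1, SMOX and PAOX, and they were taken by gene name from a table of RNA-seq counts with 57353 gene names. Of the 10, 9 were among the 12939 genes that passed a filter on low counts and were tested. PAOX did not pass it.

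Polyamines (putrescine, spermidine and spermine) are small positively charged molecules that bind RNA and are needed for protein synthesis and growth. ODC1 (ornithine decarboxylase) makes putrescine and limits the rate of the pathway, AMD1 (adenosylmethionine decarboxylase) supplies the aminopropyl donor, SRM (spermidine synthase) makes spermidine and SMS (spermine synthase) makes spermine. Antizymes (OAZ1, OAZ2) bind ODC1 and send it for degradation, the antizyme inhibitor AZIN1 holds antizymes back, SAT1 acetylates spermidine and spermine for export or oxidation, PAOX oxidises the acetylated forms, and SMOX oxidises spermine itself.

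The cells were MOLM-13, an acute myeloid leukemia line that carries FLT3-ITD, an activating duplication in the receptor tyrosine kinase FLT3. They were kept for 12 h in RPMI or in hBMSC-CM, which is medium conditioned by the human marrow stromal line HS-5. In RPMI they received vehicle (DMSO), 3 nM quizartinib (AC220, an FLT3 inhibitor) or a combo of 3 nM quizartinib and 10 nM everolimus (an inhibitor of mTORC1), and in hBMSC-CM they received vehicle, the same quizartinib dose, 10 nM everolimus or the combo. Each of the 7 conditions had 3 replicates, called cultures here, and each culture gave an input library (poly(A) RNA of the whole lysate) and a library of RNA from heavy polysomes, which are messages loaded with several ribosomes, so that there were 42 libraries. Cells in RPMI with everolimus as the sole drug are not analysed here. The line stands for a single patient's leukemia, and conditioned medium carries what stromal cells secrete but no stromal cell contact.

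Input libraries held 19.4 to 37.2 M counts and polysome libraries 21.5 to 38.8 M. Levels are given as CPM (counts relative to the library's total count, after TMM scaling), and no spike-in was used, so all values are relative to the other messages of a library and a shared loss of every message could not be detected. In bulk RNA, fewer cells of a type and less RNA per cell cannot be told apart. All 8 marker genes of a myeloid leukemia line were present in all 42 libraries. Of 12 stromal marker genes, COL3A1, LUM and POSTN were at 0 in all 42 libraries, and the summed stromal level, which was mostly COL1A1, moved with quizartinib. That sum was 1.13 to 5.08 CPM in RPMI vehicle input and 10.3 to 42.1 CPM in RPMI quizartinib input, against 1.28 to 4.35 and 6.44 to 27.6 CPM in hBMSC-CM, and its part in the results was not tested. The study describes its replicates as biological. The labels do not say how they were grown, and p-values measure the spread between these samples.

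The reading frames shown are those of AMD1 and SAT1, which took a smaller share of polysome than of input RNA in all 21 cultures. SMS did so too and has no closed upstream frame, while ODC1 has 1, AZIN1 has 3 and OAZ2 has 2. AMD1 messages carry a short upstream open reading frame ahead of the main one, which is known to stall ribosomes when polyamines are plentiful. In the annotated AMD1 transcript (GENCODE on GRCh38) it spans bases 12 to 32 and holds 6 codons before the stop. SAT1 has an upstream frame of 4 codons at bases 63 to 77. In both lines the start and stop codons are in capitals.
AMD1 upstream frame: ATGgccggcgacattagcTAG
SAT1 upstream frame: ATGgtgccagccTGA
The leader of AMD1 was 321 bases long, that of ODC1 334 bases, that of AZIN1 590 bases and that of OAZ2 233 bases, against a median of 131 bases over 20046 annotated transcripts. Leaders of SAT1 (179 bases) and SMOX (176 bases) were above that median too. Those of SMS (116 bases), OAZ1 (79 bases), SRM (75 bases) and PAOX (55 bases) were below it. SRM, OAZ1, SMOX and PAOX had no upstream ATG, while 41.5% of all transcripts had at least 1.

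ODC1 and SRM fell together under quizartinib and SAT1 rose, so the 250 bases ahead of the start of each are shown (RefSeq on GRCh38.p14, each read along its own strand). The letters CACGTG, a core E-box sequence bound by MYC and related factors and the same on both strands, are in capitals.
SRM promoter (chr1:11060019-11060268, minus strand): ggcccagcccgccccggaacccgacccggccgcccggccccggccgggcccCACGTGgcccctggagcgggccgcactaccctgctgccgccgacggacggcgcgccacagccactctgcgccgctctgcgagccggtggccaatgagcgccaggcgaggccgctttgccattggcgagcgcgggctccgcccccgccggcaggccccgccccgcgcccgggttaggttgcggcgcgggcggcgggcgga
ODC1 promoter (chr2:10448328-10448577, minus strand): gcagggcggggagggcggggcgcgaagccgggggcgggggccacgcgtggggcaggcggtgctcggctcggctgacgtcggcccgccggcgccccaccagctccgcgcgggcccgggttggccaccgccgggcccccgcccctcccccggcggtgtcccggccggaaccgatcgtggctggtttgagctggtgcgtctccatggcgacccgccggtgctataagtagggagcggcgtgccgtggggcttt
SAT1 promoter (chrX:23782923-23783172, plus strand): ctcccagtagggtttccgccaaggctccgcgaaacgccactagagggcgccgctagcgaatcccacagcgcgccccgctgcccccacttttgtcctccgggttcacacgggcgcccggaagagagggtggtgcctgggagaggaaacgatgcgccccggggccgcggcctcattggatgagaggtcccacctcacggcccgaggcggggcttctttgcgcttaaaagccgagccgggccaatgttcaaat
SRM held CACGTG at position -199 from its start, and the printed windows of ODC1 and SAT1 held none. A second RefSeq start of ODC1 inside the gene had CACGTG at position -29. Of 35116 promoter windows of the same length, 6.34% held these letters, and a match of letters is a description and no sign of binding.

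Per kilobase of transcript, OAZ1 was the most abundant member of the 10 in input RNA of untreated cells in RPMI, at 526 ± 69.5 CPM per kb (SD, n = 3). SRM followed at 218 ± 27.8, ODC1 at 86.8 ± 12.4 and SMS at 65.8 ± 5.23 CPM per kb. AMD1 stood at 27.6 ± 4.12, AZIN1 at 25.5 ± 5.29, OAZ2 at 15.4 ± 0.497, SAT1 at 11.5 ± 1.88 and SMOX at 6.05 ± 0.661 CPM per kb. AMD1 and AZIN1 did not differ beyond their spread. Under quizartinib in hBMSC-CM, SAT1 reached 119 ± 38.1 CPM per kb, above SRM at 52.9 ± 13.3 and ODC1 at 19.7 ± 1.58 CPM per kb.

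**Figure D1:**
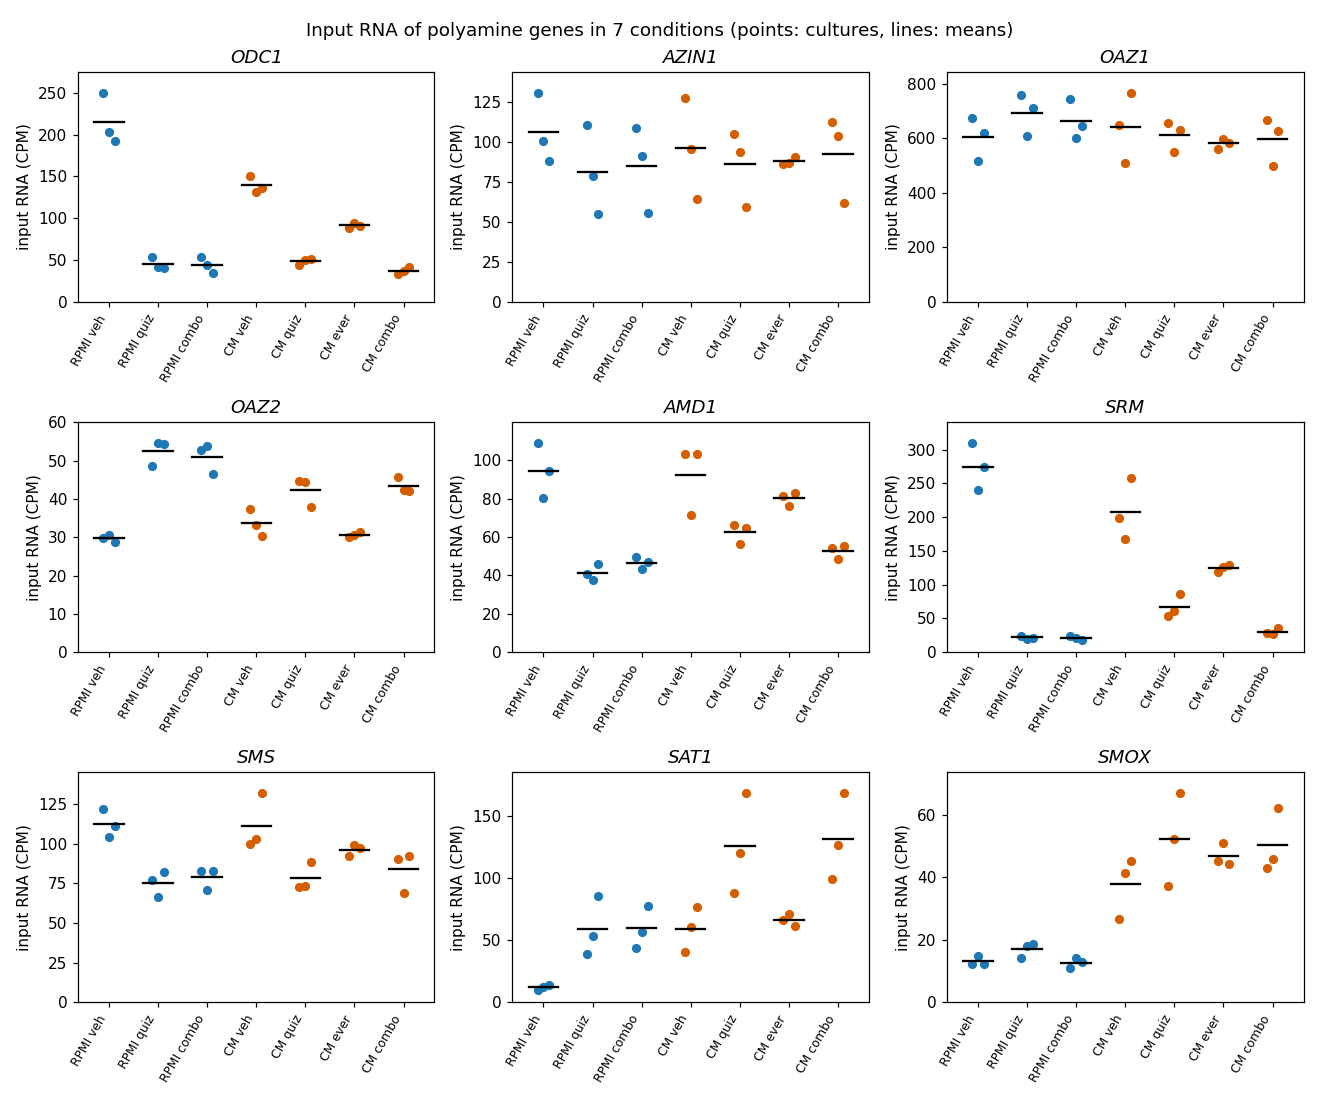
Input RNA of the 9 tested members in CPM (y axes from 0, linear) in the 7 conditions (RPMI blue, hBMSC-CM orange), with 1 point per culture and a line at the mean of 3. SRM and ODC1 are highest in the vehicle conditions (means of 275 and 215 CPM in RPMI) and low wherever quizartinib was given, while SAT1 is lowest in RPMI vehicle (12.1 CPM) and SMOX is higher in all 4 hBMSC-CM conditions than in RPMI.

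Inhibition of FLT3 was first compared with vehicle in RPMI. In input RNA 3 of the 4 synthesis genes fell (ODC1, SRM and SMS), SAT1 of polyamine breakdown rose, and the other 5 members did not pass the test (quasi-likelihood test of edgeR, p adjusted by Benjamini and Hochberg over all genes, threshold 0.05). Over all 12939 genes, 34.6% were called in this comparison. The median log2 change of the 9 members was -0.39, against 0.08 for all genes.

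SRM (ENSG00000116649, chr1:11054584-11060020, minus strand, GRCh38), the enzyme that makes spermidine, changed most. Its 3 vehicle cultures in RPMI had 310, 240 and 274 CPM of input RNA and its 3 quizartinib cultures 24.6, 19.5 and 21 CPM. No culture of either group came near the other. The log2 change was -3.66 (SE 0.25, edgeR adjusted p 2.28e-13), a level 12.6-fold lower.

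ODC1 (ENSG00000115758, chr2:10439968-10448327, minus strand), the rate-limiting enzyme, had 250, 203 and 192 CPM under vehicle and 53.9, 41.2 and 40.0 CPM under quizartinib in RPMI. Its groups were far apart too, and the log2 change was -2.26 (SE 0.22, edgeR adjusted p 7.32e-10). SMS (ENSG00000102172, chrX:21940709-21994837, plus strand), the spermine synthase, went from 122, 104 and 111 CPM to 77.2, 66.6 and 82.3 CPM. This was the smallest of the called falls, with a log2 change of -0.58 (SE 0.18, edgeR adjusted p 0.0101), and without RPMI quizartinib replicate 2 it was -0.49 with an adjusted p of 0.0588.

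AMD1 (ENSG00000123505, chr6:110874770-110898879, plus strand), which supplies the aminopropyl groups for SRM and SMS, had 109, 80.4 and 94.3 CPM of input RNA under vehicle and 40.7, 37.7 and 45.7 CPM under quizartinib in RPMI. The groups did not overlap, yet the fit over all libraries gave a log2 change of -1.19 with an SE of 0.61 and an edgeR adjusted p of 0.129. The SE of AMD1 was the largest of the 9 members, and its polysome libraries numbered 2, which are in the same fit, stood apart as described further on. With input libraries alone, an alternative chosen after the data were seen, the log2 change of AMD1 was -1.22 with an edgeR adjusted p of 5.70e-07.

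Libraries with the same replicate number and fraction varied together in every condition other than everolimus. The numbers were therefore taken to pair the cultures, which the labels do not state. A fit that gave each replicate number its own term within each fraction and left the 6 everolimus libraries out (called the paired fit here, also chosen after the data were seen) called 8 of 9 members in RPMI, 3 higher and 5 lower, where it called 54.6% of all genes. AMD1 was among them at -1.1 on the log2 scale (edgeR adjusted p 4.61e-07), as was AZIN1 at -0.35 (adjusted p 0.022), OAZ2 at 0.90 (adjusted p 9.86e-08) and SMOX at 0.43 (adjusted p 0.0141). SMS was called there too, at -0.5 (edgeR adjusted p 0.000712), and OAZ1 was the member not called.

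SAT1 (ENSG00000130066, chrX:23783173-23786210, plus strand), the acetyltransferase at the head of polyamine breakdown, had 10.0, 12.4 and 13.9 CPM under vehicle in RPMI. Under quizartinib it had 39.1, 53.4 and 85.0 CPM, which is above every vehicle culture and spread over a wide range. The log2 change was 2.29 (SE 0.32, edgeR adjusted p 5.51e-07), a level 4.89-fold higher. SMOX (ENSG00000088826, chr20:4120980-4187747, plus strand), the spermine oxidase, had 12.4, 14.8 and 12.2 CPM under vehicle and 14.2, 18.0 and 18.8 CPM under quizartinib, and these ranges overlapped.

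Among the regulators of ODC1 protein, OAZ2 (ENSG00000180304, chr15:64687573-64703281, minus strand) had 29.9, 30.6 and 28.7 CPM under vehicle and 48.7, 54.6 and 54.2 CPM under quizartinib in RPMI. The groups did not overlap, and in the fit over all libraries the log2 change was 0.82 (SE 0.45, edgeR adjusted p 0.163). OAZ1 (ENSG00000104904, chr19:2269509-2273490, plus strand), the more abundant antizyme, had 518 to 675 CPM under vehicle and 608 to 759 CPM under quizartinib. AZIN1 (ENSG00000155096), the inhibitor of both antizymes, had 88.0 to 131 CPM under vehicle and 55.3 to 111 CPM under quizartinib. The ranges of OAZ1 and of AZIN1 overlapped between the groups.

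**Figure D2:**
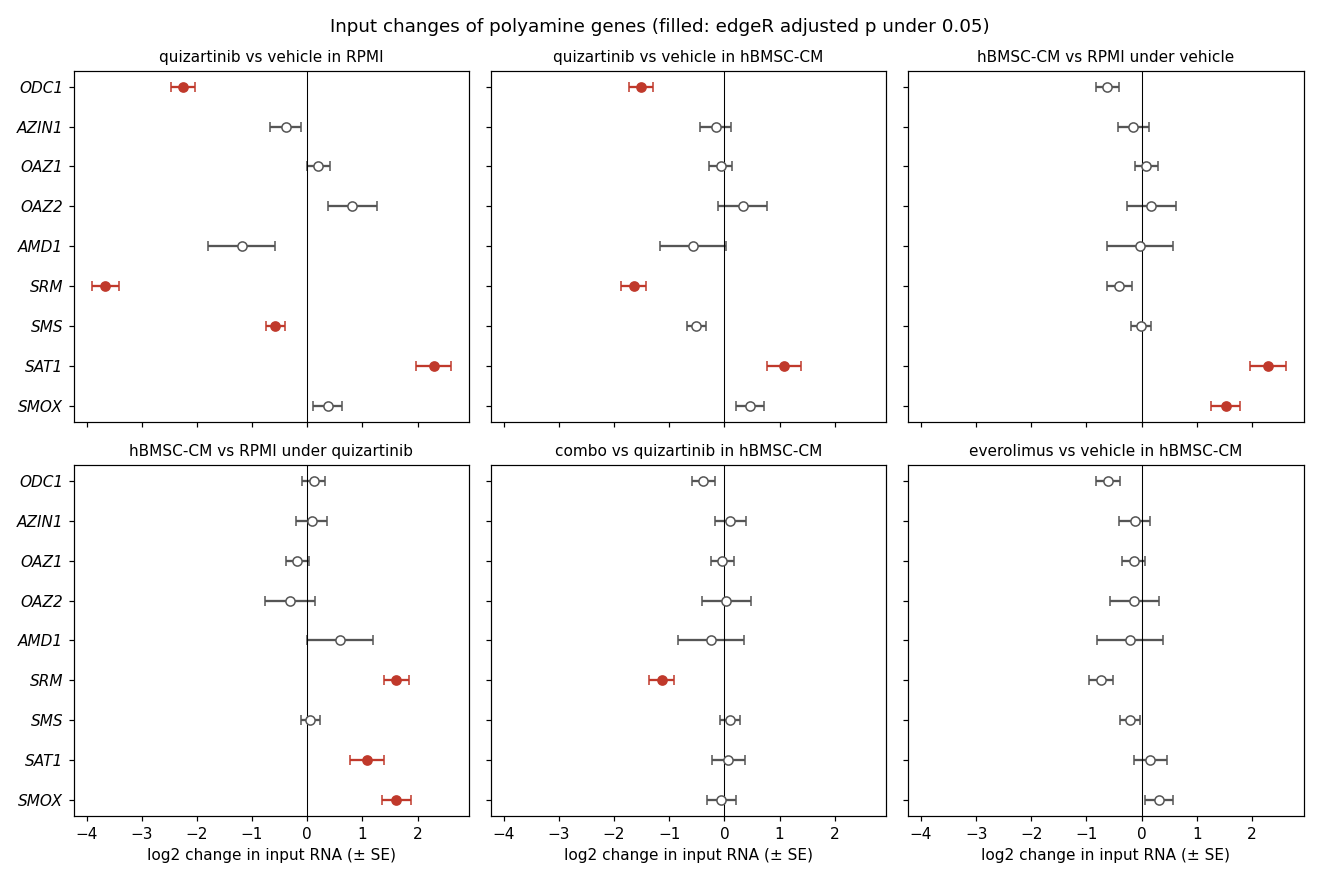
Log2 change in input RNA of each tested member (x axes, points with SE bars from the edgeR fit over all 42 libraries) in 6 comparisons, with filled points where the adjusted p was under 0.05. Quizartinib gives SRM its lowest value in RPMI (-3.66) and a smaller fall in hBMSC-CM (-1.64), and AMD1 and OAZ2 have the broadest bars.

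In hBMSC-CM quizartinib lowered ODC1 and SRM and raised SAT1, which were the 3 of 9 members called where 12.3% of all genes were called. The median change of the members was -0.16, against 0.01 for all genes. SRM had 199, 167 and 258 CPM of input RNA under vehicle and 54.0, 60.5 and 85.6 CPM under quizartinib in this medium, a log2 change of -1.64 (SE 0.23, edgeR adjusted p 1.33e-05). ODC1 had 151, 132 and 136 CPM under vehicle and 44.5, 50.2 and 51.9 CPM under quizartinib. Its log2 change was -1.51 (SE 0.22, edgeR adjusted p 2.16e-05). For both genes every quizartinib culture was below every vehicle culture.

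SAT1 had 40.5, 60.3 and 76.9 CPM under vehicle in hBMSC-CM and 87.9, 120 and 168 CPM under quizartinib. The groups did not overlap, and the log2 change was 1.08 (SE 0.31, edgeR adjusted p 0.0167). In the fit over all libraries this call depended on single cultures. Without hBMSC-CM quizartinib replicate 3 the change in SAT1 was 0.81 with an edgeR adjusted p of 0.0995. Without hBMSC-CM vehicle replicate 1 it was 0.87 with an adjusted p of 0.0899. The paired fit kept the SAT1 call, at 1.11 (edgeR adjusted p 1.56e-06). SMS had 99.6 to 132 CPM under vehicle and 72.9 to 88.6 CPM under quizartinib and just missed the threshold, at -0.51 (SE 0.18, edgeR adjusted p 0.0524), and without hBMSC-CM quizartinib replicate 3 it was called at -0.61 (adjusted p 0.0341). The paired fit called 7 of 9 members here, 3 higher and 4 lower, where it called 34.9% of all genes. The members it added were SMS (-0.47, edgeR adjusted p 0.00272), AMD1 (-0.52, adjusted p 0.0108), OAZ2 (0.37, adjusted p 0.0182) and SMOX (0.50, adjusted p 0.007).

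The quizartinib effect was then compared between the media. SRM was the single member of 9 for which it differed, where 1.96% of all genes did. Its log2 difference, hBMSC-CM minus RPMI, was 2.02 (SE 0.32, edgeR adjusted p 0.000162), so that the fall of SRM was smaller in hBMSC-CM. ODC1, which fell in both media, had a difference of 0.74 (SE 0.30) with an edgeR adjusted p of 0.315. With input libraries alone ODC1 (0.77, edgeR adjusted p 0.0371) and AMD1 (0.65, adjusted p 0.0498) were called beside SRM, where 5.72% of all genes were. In the paired fit 3 members differed, where 9.83% of all genes did: SRM, SAT1 at -1.20 (edgeR adjusted p 0.000394) and OAZ2 at -0.54 (adjusted p 0.0394), the latter pair rising less in hBMSC-CM.

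MYC encodes a transcription factor whose product is known to bind the ODC1 gene, and its input level is given for reference. It was 490 ± 75.1 CPM under vehicle and 42.7 ± 11.8 CPM under quizartinib in RPMI, against 476 ± 113 and 377 ± 64.8 CPM in hBMSC-CM (SD, n = 3 each). ODC1 under quizartinib was 45.0 ± 7.74 CPM in RPMI and 48.9 ± 3.90 CPM in hBMSC-CM, and SRM was 21.7 ± 2.62 and 66.7 ± 16.7 CPM. Over the 21 input libraries, which share conditions and depth, Pearson r of log2 CPM with MYC was 0.83 for AMD1, 0.80 for SRM and 0.58 for ODC1. Among the other tested members it was 0.6 for SMS, 0.58 for SMOX, 0.22 for AZIN1, -0.07 for SAT1, -0.38 for OAZ1 and -0.82 for OAZ2. Whether MYC plays a part in any of these changes was not tested.

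Conditioned medium by itself, without drug, raised SAT1 and SMOX, the 2 genes of polyamine breakdown that could be tested. They were the 2 of 9 members called between the media under vehicle, where 1.51% of all genes were called. SAT1 went from 10.0 to 13.9 CPM in RPMI to 40.5 to 76.9 CPM in hBMSC-CM, a log2 change of 2.29 (SE 0.32, edgeR adjusted p 1.40e-05). SMOX went from 12.4, 14.8 and 12.2 CPM to 26.7, 41.3 and 45.3 CPM, with no overlap and a log2 change of 1.52 (SE 0.26, edgeR adjusted p 0.000427). The median change of the members was -0.01, close to that of all genes (-0.005). ODC1 was 192 to 250 CPM in RPMI and 132 to 151 CPM in hBMSC-CM, at -0.62 (SE 0.21, edgeR adjusted p 0.204), and in the paired fit it was called lower at -0.63 (edgeR adjusted p 0.0228).

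Median changes under quizartinib were 0.12 for the members and -0.03 for all genes between the media. They differed in SRM, SAT1 and SMOX, all 3 higher in hBMSC-CM, where 8.16% of all genes were called. SRM was 19.5 to 24.6 CPM in RPMI and 54.0 to 85.6 CPM in hBMSC-CM, a log2 change of 1.62 (SE 0.23, edgeR adjusted p 4.49e-06). SMOX was 14.2 to 18.8 CPM in RPMI and 37.3 to 67.0 CPM in hBMSC-CM, also at 1.62 (SE 0.26, edgeR adjusted p 3.92e-05). The groups of both genes were well apart.

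Under quizartinib SAT1 was 39.1, 53.4 and 85.0 CPM in RPMI cultures numbered 1, 2 and 3. It was 87.9, 120 and 168 CPM in the same-numbered hBMSC-CM cultures. The ranges of the groups nearly touched, and in the fit over all libraries the log2 change was 1.08 (SE 0.31, edgeR adjusted p 0.0189). Leaving out hBMSC-CM quizartinib replicate 3, RPMI quizartinib replicate 1 or RPMI quizartinib replicate 2 gave SAT1 changes of 0.82, 0.86 and 1.01 with edgeR adjusted p of 0.168, 0.159 and 0.0923. The paired fit called 5 of 9 members, 4 higher and 1 lower, where it called 23.1% of all genes. It kept SAT1 at 1.04 (edgeR adjusted p 4.49e-06), and it added AMD1 at 0.54 (adjusted p 0.0131) and OAZ2 at -0.37 (adjusted p 0.0217). These comparisons between media share their quizartinib and vehicle cultures with the comparisons of drug, so their values are not independent of those.

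The effect of everolimus was compared in 3 ways. Added to quizartinib in RPMI, it changed none of the 9 members, and 0.00773% of all genes (1 gene) were called. ODC1 was 34.9 to 53.7 CPM and SRM 17.7 to 23.8 CPM in the combo, which overlapped the cultures with quizartinib alone. Given alone in hBMSC-CM, everolimus changed none of the members at the threshold either, where 0.410% of all genes were called. SRM was 119 to 129 CPM under everolimus and 167 to 258 CPM under vehicle, and ODC1 was 88.8 to 94.3 CPM under everolimus and 132 to 151 CPM under vehicle. Both pairs of groups were apart, with log2 changes of -0.74 (SE 0.22, edgeR adjusted p 0.155) for SRM and -0.61 (SE 0.21, edgeR adjusted p 0.261) for ODC1. With input libraries alone, where 3.68% of all genes were called, both were called, SRM at -0.75 (edgeR adjusted p 0.0227) and ODC1 at -0.62 (adjusted p 0.0248). Same-numbered input libraries of everolimus and vehicle did not vary together (r of deviations from group means -0.021 to -0.015), unlike those of the other input comparisons. The labels do not say whether the everolimus cultures were handled apart from the rest, and any part of this in the values was not tested.

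Added to quizartinib in hBMSC-CM, everolimus lowered SRM, the single member called where 0.240% of all genes were called. SRM was 54.0, 60.5 and 85.6 CPM under quizartinib and 27.6, 26.9 and 36.4 CPM in the combo, a log2 change of -1.14 (SE 0.23, edgeR adjusted p 0.0182). The groups did not overlap, but the call was lost without several single cultures. The edgeR adjusted p rose to 0.0536 and 0.247 without hBMSC-CM quizartinib replicates 2 and 3, and to 0.284 and 0.126 without hBMSC-CM combo replicates 1 and 2, while the log2 change of SRM stayed between -1.20 and -0.92. The SRM call was also lost when only the compared libraries were fitted and when all cultures numbered 2 were left out. It was kept in the paired fit (-1.11, edgeR adjusted p 0.000435), where 4.68% of all genes were called. Input libraries alone kept it too (-1.13, edgeR adjusted p 0.00428), where 1.57% of all genes were called. ODC1 was 44.5 to 51.9 CPM under quizartinib and 33.2 to 42.3 CPM in the combo, which was not called (-0.38, SE 0.21, edgeR adjusted p 0.94). SAT1, at 87.9 to 168 and 99.4 to 168 CPM, and SMOX, at 37.3 to 67.0 and 42.9 to 62.1 CPM, overlapped almost fully.

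Loading of the messages was described as polysome minus input, the log2 difference between the polysome and the input library of a culture. A value above 0 means that a message makes up more of the heavy polysome RNA than of the input RNA. Most genes differed between the fractions. In RPMI 65.4% of all genes were called under vehicle (7 of 9 members), 57.9% under quizartinib (4 members) and 59.3% in the combo (3 members). In hBMSC-CM 63.6% were called under vehicle (6 members), 58.7% under quizartinib (5 members), 58.6% under everolimus (6 members) and 63% in the combo (6 members). The members called lay on both sides of the share of all genes, furthest below it in the RPMI combo. These counts are not read as particular to the members. The median over all genes was -0.11 to 0.06 in the 7 conditions, and it was -0.63 to -0.22 when libraries were scaled by their totals alone, so the values below are relative to the bulk of the messages.

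**Figure D3:**
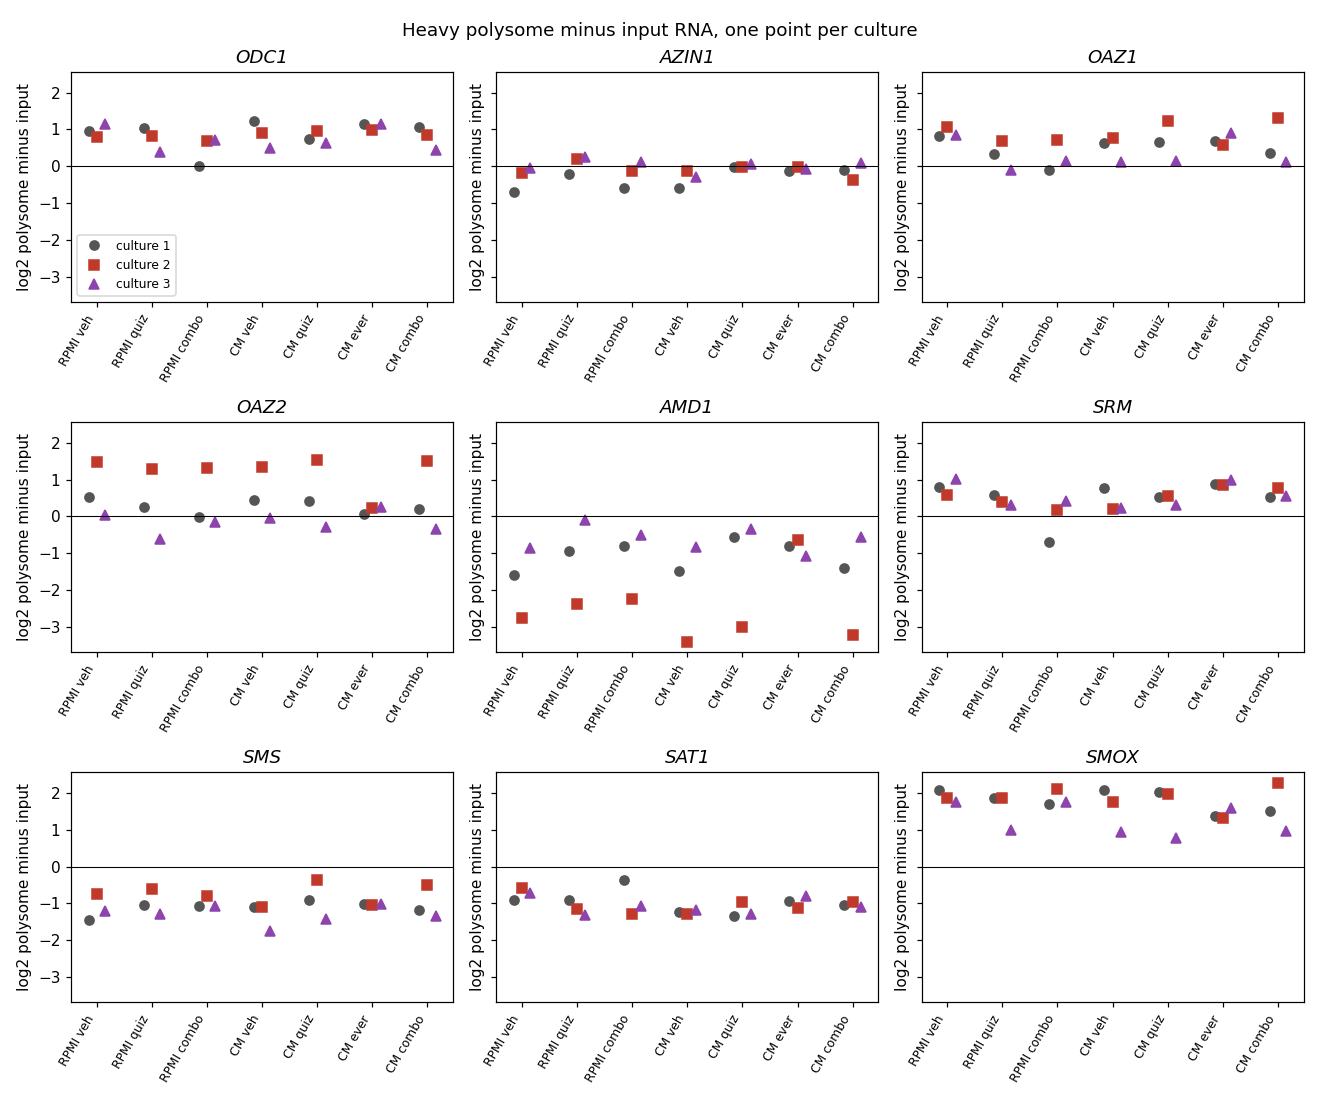
Polysome minus input RNA on the log2 scale (shared y axis) for the 9 tested members in the 7 conditions, with 1 symbol per culture (circle, square and triangle for cultures numbered 1, 2 and 3) and a line at 0. SMOX is above 0 and SMS, SAT1 and AMD1 are below 0 in all 21 cultures, and the squares of AMD1 and OAZ2 lie away from the other cultures in every condition but everolimus.

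SMOX stood highest, with polysome minus input of 0.78 to 2.28 in the 21 cultures and a median of 1.76. It was called higher in polysomes in all 7 conditions, from 1.43 (SE 0.26, edgeR adjusted p 2.35e-05) under everolimus to 1.91 (SE 0.27, edgeR adjusted p 3.27e-07) in RPMI vehicle. ODC1 was above 0 in 20 of 21 cultures, at 0.00 to 1.24, and was called higher in every condition but the combo in RPMI, where it was 0.46 (SE 0.21, edgeR adjusted p 0.0646). With a term for each culture, that value of ODC1 was 0.47 with an edgeR adjusted p of 0.0325. ODC1 in the hBMSC-CM combo was 0.78 (edgeR adjusted p 0.00202), and without hBMSC-CM combo replicate 1 it was 0.57 with an adjusted p of 0.0595. The paired fit kept ODC1 there, at 0.77 (edgeR adjusted p 0.000274), where it called 74.5% of all genes. Without RPMI combo replicate 1, which was at 0.00, ODC1 in the RPMI combo was 0.70 with an adjusted p of 0.0264.

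SMS and SAT1 were the reverse, with less of their RNA in heavy polysomes than in input in all 21 cultures. SMS was -1.75 to -0.37 with a median of -1.06, and it was called lower in all 7 conditions. SAT1 was -1.34 to -0.37 with a median of -1.08, and it was called lower in all 7 conditions as well. In RPMI vehicle, where SAT1 had only 5.29 to 8.49 CPM in polysomes, its difference of -0.71 (SE 0.31, edgeR adjusted p 0.044) was lost whichever of the 3 cultures was left out: without RPMI vehicle replicates 1, 2 and 3 the adjusted p was 0.147, 0.0875 and 0.11. The SAT1 call was also lost without RPMI combo replicate 2 (-0.78, edgeR adjusted p 0.0863) and without hBMSC-CM everolimus replicate 2 (-0.87, adjusted p 0.0629). The paired fit, which does not cover everolimus, kept SAT1 lower in RPMI vehicle (-0.61, edgeR adjusted p 0.0023) and the RPMI combo (-0.93, adjusted p 4.52e-06). It called 75.1% and 71.5% of all genes there.

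SRM was above 0 in 20 of 21 cultures, at -0.70 to 1.01. It was called higher in RPMI vehicle (0.82, SE 0.22, edgeR adjusted p 0.00187), under everolimus (0.91, SE 0.22, edgeR adjusted p 0.000889) and in the hBMSC-CM combo (0.62, SE 0.22, edgeR adjusted p 0.0175). The last of these calls was lost whichever of its 3 cultures was left out, with edgeR adjusted p of 0.0749, 0.103 and 0.0776. The paired fit kept it, at 0.63 (edgeR adjusted p 0.00443), where it called 74.5% of all genes. With a term for each culture SRM was also called under quizartinib, at 0.43 (edgeR adjusted p 0.0429) in RPMI and 0.47 (adjusted p 0.0286) in hBMSC-CM.

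OAZ1 was above 0 in 19 of 21 cultures, at -0.11 to 1.32, and was called higher in RPMI vehicle (0.91, SE 0.21, edgeR adjusted p 0.000331) and in all 4 hBMSC-CM conditions (0.50 to 0.73). Those 4 calls of OAZ1 depended on single cultures in the fit over all libraries. Without hBMSC-CM vehicle replicates 1 and 2 OAZ1 was 0.42 and 0.38 (edgeR adjusted p 0.17 and 0.209), without hBMSC-CM quizartinib replicate 2 it was 0.43 (adjusted p 0.165), without hBMSC-CM combo replicate 2 it was 0.25 (adjusted p 0.392), and without hBMSC-CM everolimus replicate 3 it was 0.63 (adjusted p 0.05). With a term for each culture, OAZ1 in hBMSC-CM vehicle was 0.51 with an edgeR adjusted p of 0.0532, and with libraries scaled by their totals alone it was -0.01. The paired fit, which leaves everolimus out, called OAZ1 higher in hBMSC-CM vehicle (0.67, edgeR adjusted p 6.25e-05), quizartinib (0.72, adjusted p 2.24e-05) and the combo (0.62, adjusted p 0.000164). It called 71.7% to 74.5% of all genes in these conditions. The OAZ1 locus overlaps exons of JSRP1 on the opposite strand, and strand use in the counting is not given in the sources used here. AZIN1 lay around 0, at -0.69 to 0.24, and was called in no condition.

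AMD1 and OAZ2 depended on the replicate number in polysome RNA, and other members followed the number as well, as given below. In the 6 conditions other than everolimus, AMD1 had 5.16 to 11.8 CPM in polysome libraries numbered 2 and 20.4 to 58.1 CPM in those numbered 1 and 3. In input RNA of the same conditions AMD1 had 37.7 to 80.4 and 40.7 to 109 CPM, and these ranges overlapped. Within each of these conditions the input library numbered 2 was still the lowest, by a smaller ratio than in polysomes. In hBMSC-CM vehicle, for example, it had 71.6 CPM, against 103 and 103 CPM in those numbered 1 and 3. The polysome libraries numbered 2 still held 142 to 324 counts of AMD1, which is far above the floor of 3 counts.

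OAZ2 was shifted the other way. It had 84.1 to 135 CPM in polysome libraries numbered 2 and 29.4 to 59.3 CPM in those numbered 1 and 3, against 30.6 to 54.6 and 28.7 to 54.2 CPM in input. Under everolimus AMD1 had 46.4, 49.0 and 39.3 CPM and OAZ2 31.3, 35.9 and 37.1 CPM in polysomes, so culture 2 did not stand apart there. What set the libraries numbered 2 apart was not tested. Other members followed the number in every condition but everolimus. Polysome minus input was highest in culture 2 for OAZ1 (0.68 to 1.32) and least negative there for SMS (-1.09 to -0.37). In input RNA, SAT1 rose from culture 1 to culture 3 and AZIN1 was lowest in culture 3. The cause of this was not tested either.

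For AMD1 the polysome minus input value was -3.40 to -2.25 in the 6 cultures numbered 2 and -1.59 to -0.09 in the 12 numbered 1 and 3. It was below 0 in all 21 cultures, and the fit over all libraries called it lower in RPMI vehicle (-1.50, SE 0.61, edgeR adjusted p 0.031) and hBMSC-CM vehicle (-1.44, SE 0.61, edgeR adjusted p 0.0389). Both AMD1 calls were lost without culture 2 (-1.20 and -1.11, edgeR adjusted p 0.156 and 0.167) and without culture 1 (-1.45 and -1.43, adjusted p 0.111 and 0.119) of the condition. AMD1 in the hBMSC-CM combo was -1.34 (edgeR adjusted p 0.0555), and it was called at -2.14 (adjusted p 0.0166) without replicate 3. With a term for each culture AMD1 was called lower in both vehicle conditions (-1.73 and -1.85, edgeR adjusted p 0.0111 and 0.00874) and in the hBMSC-CM combo (-1.70, adjusted p 0.0151). It was not called in RPMI quizartinib (-1.11, adjusted p 0.0972), the RPMI combo (-1.17, adjusted p 0.0775) or hBMSC-CM quizartinib (-1.24, adjusted p 0.0698). The paired fit, which takes the shift of the polysome libraries numbered 2 out of the error, called AMD1 lower in all 6 conditions it covered. With all cultures numbered 2 left out, AMD1 was not called in RPMI quizartinib (-0.42, edgeR adjusted p 0.26), the RPMI combo (-0.65, adjusted p 0.0844) or hBMSC-CM quizartinib (-0.45, adjusted p 0.226). That fit called AMD1 lower in RPMI vehicle (-1.2, edgeR adjusted p 0.00264), hBMSC-CM vehicle (-1.11, adjusted p 0.00491), everolimus (-0.94, adjusted p 0.0151) and the hBMSC-CM combo (-0.93, adjusted p 0.0151). For OAZ2 the difference was 1.30 to 1.52 in cultures numbered 2 and -0.62 to 0.52 in those numbered 1 and 3, and the fit over all libraries called it in no condition, nor did the fit with a term for each culture. The paired fit called OAZ2 higher in 5 of 6 conditions, with the same shift taken out of its error, but with all cultures numbered 2 left out OAZ2 was -0.13 to 0.30 and was called in none. The cultures numbered 1 and 3 thus fell on both sides of 0 for OAZ2 and on a single side for AMD1.

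The change in loading with drug or medium was tested as the polysome change minus the input change. In quizartinib against vehicle in RPMI, 1.55% of all genes were called, and in the other 7 comparisons 0% were. None of the 9 members was called in any of the 8 comparisons. Of the 72 values, 0 had an unadjusted p under 0.05, the smallest being 0.0506, and the log2 values ran from -0.60 to 0.82. DESeq2 and limma voom called no member either. Over all genes, in the 7 comparisons with no call, 93 to 624 genes had an unadjusted p under 0.05 in edgeR, while limma voom called 0 and DESeq2 0 to 20. SRM, for which the fall in input was steepest, had -0.37 (SE 0.32, edgeR adjusted p 0.636) in RPMI, and SAT1, which rose, had -0.45 (SE 0.43, edgeR adjusted p 0.697).

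In the paired fit 2 members were called lower in that comparison in RPMI, where 14% of all genes were called. They were OAZ1 at -0.82 (edgeR adjusted p 0.00417) and OAZ2 at -0.55 (adjusted p 0.0267), whose values in the fit over all libraries were -0.60 and -0.29. OAZ1 in polysomes had 1200, 1090 and 1120 CPM under vehicle and 960, 972 and 658 CPM under quizartinib in RPMI, while its input was 675, 518 and 621 CPM and then 759, 608 and 712 CPM. Its polysome groups did not overlap. The SE of a change in loading was 0.25 for SMS, 0.30 for ODC1, 0.32 for SRM and 0.85 for AMD1 in this comparison, so shifts in loading of AMD1 would have had to be large to be seen.

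PAOX, the oxidase of acetylated polyamines, had 0 to 38 counts in input libraries and 0 to 32 in polysome libraries, which is at most 1.45 CPM. It was at 0 in 1 input and 3 polysome libraries. No fold change is given, since most libraries were near the floor of 3 counts or a few times above it.

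Genes next to the pathway were counted from a list of 23 (ornithine and methionine supply, hypusination, transport and relatives of the members), of which 18 were tested. Under quizartinib in RPMI 9 of the 18 were lower and 2 higher in input RNA, with a list median of -0.99, against 18% of all genes lower, 16.6% higher and a median of 0.08. The 2 that rose were AZIN2, a second antizyme inhibitor (3.00, SE 0.35, edgeR adjusted p 2.39e-08), and SAT2, a relative of SAT1 (2.58, SE 0.28, edgeR adjusted p 3.73e-09). In hBMSC-CM 5 were lower and 2 higher, the same pair at 1.79 and 1.32, where 6.84% of all genes were lower and 5.46% higher. MAT2A, which makes the S-adenosylmethionine that AMD1 uses, was the gene of the list whose quizartinib effect differed between media (1.30, SE 0.28, edgeR adjusted p 0.00618), and under quizartinib it was higher in hBMSC-CM by 1.30 (edgeR adjusted p 1.51e-05). Between media under quizartinib 4 of 18 were higher and 1 lower (6.11% and 2.05% of all genes), under vehicle 1 was higher (SAT2, 1.1, edgeR adjusted p 0.0219), and none was called in the 3 comparisons with everolimus or for a change in loading.

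In polysome minus input, 7 to 11 of the 18 listed genes were higher and 2 to 4 lower in each condition, where 27.9% to 32.9% of all genes were higher and 26.7% to 34% lower. ATP13A2, a lysosomal polyamine exporter, was 1.87 in RPMI vehicle (edgeR adjusted p 0.000176). DOHH, which completes hypusine, was 1.58 there (edgeR adjusted p 0.000105), and EIF5A, the protein that carries hypusine made from spermidine, was 1.47 in the hBMSC-CM combo (adjusted p 2.47e-05). ATP13A3, a transporter that takes polyamines up, was -1.67 in hBMSC-CM vehicle (edgeR adjusted p 8.86e-06).

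Over the 21 input libraries, the gene whose log2 CPM followed SRM most closely among 8638 was EIF5A (Pearson r = 0.996), followed by XPO5 and UTP4 (both 0.993). For ODC1 these were BZW2 (0.985), SEPHS1 (0.982) and FOXRED2 (0.981), for AMD1 they were DESI1 (0.978), MPV17L2 (0.969) and NAE1 (0.965), and for SAT1 they were VSIR (0.983), NFE2 (0.968) and SERPINB1 (0.961). SRM itself had r = 0.96 with AMD1 and 0.93 with ODC1, and -0.93 with OAZ2. These values describe libraries that share conditions, depth and scaling.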

How the data were processed

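The authors isolated input and heavy polysome RNA, made poly(A)-selected libraries (Universal Plus mRNA-seq, NovaSeq6000, paired reads), trimmed with BBDuk, aligned to hg38 (Ensembl annotation) and counted per gene with STAR 2.6.0a. The deposited values are these raw counts, not normalized or filtered. Strand use is not given in the sources used here.

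Counts of rows with the same gene name were summed. Genes with a mean of at least 1 count and 1 CPM were kept (12939 genes, 99.8% of counts). All 42 libraries entered 1 quasi-likelihood fit of 14 groups in edgeR 4.0.16 (R 4.3.3, TMM factors, no block). A gene was called where its p, adjusted by Benjamini and Hochberg, was under 0.05. Polysome minus input used log2 CPM with a prior count of 2. CPM per kb used the GENCODE v44 canonical transcript, on the authors' assembly but a later annotation release. SDs and SEs include the spread between cultures, while the floor of 3 counts covers counting error only.

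The members and lists were chosen with earlier results of these data known. Named were all 10 members, MYC, the 2 listed neighbours with the largest called change of at least 10 CPM in each comparison, and the 3 genes most like ODC1, SRM, AMD1 and SAT1.

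Deviations from group means were correlated between libraries of the same number and fraction: r was 0.204 to 0.819 in 90 of 90 pairs without everolimus, and at most 0.154 in 36 pairs with it. The numbers come from the sample labels, so replicate numbers were taken to pair cultures except under everolimus. Alternatives were RLE factors, library size only, no filter, a filter of 10 CPM, replicate blocks, limma voom (3.58.1), DESeq2 (1.42.0), only the compared or only input libraries, all cultures numbered 2 left out, and each culture left out.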

Additional observations from a re-analysis of the deposited data

Results flagged for a closer look

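The effect of quizartinib on SRM input RNA differed between the media, by a log2 value of 2.02 (hBMSC-CM minus RPMI) in a test of the difference itself. The fall was -3.66 in RPMI and -1.64 in hBMSC-CM. The difference kept its direction and its call in every alternative run for it.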

How the results depend on the processing

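Of 402 recomputed counts of members called, 374 stayed within 1.5 times the reported count and 28 did not. Of 3602 values of single members, 3425 kept direction and call, 107 became called, 69 lost their call and 1 reversed: OAZ1 polysome minus input in hBMSC-CM vehicle was -0.01 (edgeR adjusted p 0.943) when libraries were scaled by their totals alone. That scaling lowered the members called between fractions in hBMSC-CM quizartinib from 5 to 3. The share of all genes called under that scaling is not given here, so this fall is not read as particular to the members.

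With a replicate block (1 term per number), everolimus against vehicle in input went from 0 to 1 member (1.89% of all genes called), the difference of the quizartinib effect between media from 1 to 2 (3.52%), and polysome minus input in the RPMI combo from 3 to 5 (64.8%). With the replicate block within each fraction, quizartinib in input went from 4 to 7 in RPMI (48.9% of all genes) and from 3 to 5 in hBMSC-CM (29.4%), everolimus from 0 to 2 (5.22%), the difference between media from 1 to 2 (6.77%), and polysome minus input from 3 to 5 in the RPMI combo (69.3%) and from 5 to 8 in hBMSC-CM quizartinib (69.7%). With the same replicate block and everolimus left out these were 8, 7, 3, 6 and 8 (54.6%, 34.9%, 9.83%, 71.5% and 71.7% of all genes), and everolimus was not fitted. There, media under quizartinib went from 3 to 5 (23.1% of all genes), and loading under quizartinib in RPMI from 0 to 2 (14%). Everolimus cultures did not pair by number.

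Input libraries alone gave 6 members for quizartinib in hBMSC-CM (25.8% of all genes), 2 for everolimus (3.68%) and 3 for the difference between media (5.72%), which were SRM, ODC1 and AMD1. Combo against quizartinib in hBMSC-CM went from 1 to 0 when only the compared libraries were fitted and when all cultures numbered 2 were left out, and it was 0 to 1 with single cultures left out. Without all cultures numbered 2, polysome minus input fell to 3 members in hBMSC-CM quizartinib and to 3 in the hBMSC-CM combo. Fits with libraries left out or only the compared libraries hold fewer libraries, and their shares of all genes called are not given here. Their counts are therefore not read as particular to the members. The cause of these changes in count was not tested. With 3 cultures a group and relative values, small shifts in loading, and any in PAOX, could not be resolved.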
